A study of Mus musculus with 16 samples.

Results

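The 10 genes described here encode the machinery that folds proteins in the lumen of the endoplasmic reticulum (ER) and the sensors and transcription factor that adjust it, the unfolded protein response. They were chosen by name: Hspa5, Hsp90b1, Canx, Sdf2l1, Pdia3, Pdia4, Pdia6, Atf6, Ern1 and Xbp1. All 10 were found among the 23479 genes of the deposited count table, and all 10 were among the 18430 genes that passed the filter on low counts. Expression was measured by RNA sequencing of CD4 T cells purified by negative selection from the spleens of C57BL/6 mice. The groups were mice without tumours, labelled day 0 (controls, n = 5), and mice that carried transplanted Eu-Myc lymphoma cells and were sampled on day 7 (n = 7) or day 14 (n = 4) after transplant. Eu-Myc lymphoma is a mouse B cell cancer driven by a Myc transgene under an immunoglobulin heavy chain enhancer, so the transgene belongs to the transplanted cells and not to the host's CD4 T cells. No age or sex was given in the sources used here. The design text counts mice, and each library was treated as 1 of them.

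Proteins that enter the ER are held by chaperones of the Hsp70 and Hsp90 families, joined by disulfide bonds through protein disulfide isomerases, and checked by lectin chaperones that read their sugars. When unfolded proteins accumulate, the Hsp70 chaperone BiP leaves the membrane sensors IRE1, ATF6 and PERK, and these raise the transcription of the folding machinery. In lymphocytes the pathway is best known from plasma cells, where XBP1 expands the ER for antibody secretion, and T cells engage it when they are activated and grow.

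The regulatory sequence known from folding genes is the ER stress response element, which ATF6 and XBP1 bind together with the CCAAT-binding factor NF-Y. It was searched as CCAAT followed, after any 9 bases, by CCACG, on both strands. Promoter sequence from RefSeq (GRCm38.p6) was matched by symbol for 9 of the 10 genes, Atf6 being the one without an entry. In the 250 bases before the RefSeq transcription start, the element was present in 4 of these 9 genes, Hspa5, Hsp90b1, Canx and Pdia6. It was present in 37 of 32851 promoters in the whole table (0.113%). The 4 windows are shown because they carry the shared element, 5′ to 3′ on the strand of the gene, with the element in capitals. The Hspa5 window lies at chr2:34771840-34772089 on the plus strand, Hsp90b1 at chr10:86705445-86705694 on the minus strand, Canx at chr11:50325674-50325923 on the minus strand and Pdia6 at chr12:17266339-17266588 on the plus strand.
Hspa5: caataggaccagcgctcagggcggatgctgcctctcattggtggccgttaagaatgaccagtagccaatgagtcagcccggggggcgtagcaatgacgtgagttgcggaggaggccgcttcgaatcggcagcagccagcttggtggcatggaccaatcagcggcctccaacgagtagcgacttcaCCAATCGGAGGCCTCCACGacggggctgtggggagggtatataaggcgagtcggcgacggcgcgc
Hsp90b1: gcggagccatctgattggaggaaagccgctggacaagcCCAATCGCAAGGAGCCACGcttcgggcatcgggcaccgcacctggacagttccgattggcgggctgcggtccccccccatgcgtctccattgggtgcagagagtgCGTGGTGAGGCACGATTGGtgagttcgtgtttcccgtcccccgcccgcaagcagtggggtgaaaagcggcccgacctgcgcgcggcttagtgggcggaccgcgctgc
Canx: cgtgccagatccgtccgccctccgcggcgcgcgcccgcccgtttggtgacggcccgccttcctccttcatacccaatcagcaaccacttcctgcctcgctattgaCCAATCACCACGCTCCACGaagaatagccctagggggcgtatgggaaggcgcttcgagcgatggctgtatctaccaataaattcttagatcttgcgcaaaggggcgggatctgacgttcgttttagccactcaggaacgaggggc
Pdia6: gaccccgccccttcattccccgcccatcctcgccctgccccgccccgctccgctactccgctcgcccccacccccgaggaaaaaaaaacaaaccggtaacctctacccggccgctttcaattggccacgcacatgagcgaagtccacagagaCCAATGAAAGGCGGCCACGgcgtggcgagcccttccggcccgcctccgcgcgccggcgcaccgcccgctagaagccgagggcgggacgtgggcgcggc
The Hspa5 element covered bases 65 to 47 before the start, the Canx element bases 145 to 127 and the Pdia6 element bases 98 to 80. Hsp90b1 held 2 elements, at bases 212 to 194 and, on the opposite strand, at bases 107 to 89. The CCAAT part alone, which every element contains, was present in 7 of the 9 promoters, against 33.8% of all promoters. The second form of the element, ATTGG followed after any base by CCACG, and TGACGTGG, a core bound by ATF6 and XBP1, were searched on both strands and found in 0 of the 9, against 0.0304% and 0.563% of all promoters. A match describes the letters in this window and does not show binding.

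The genes lie, in GRCm38, at chr2:34771970-34777547 (Hspa5, plus strand), chr10:86690209-86705509 (Hsp90b1, minus strand), chr11:5520659-5525893 (Xbp1, plus strand), chr1:170704674-170867771 (Atf6, minus strand), chr11:106394650-106487852 (Ern1, minus strand). The others lie at chr2:121413775-121438687 (Pdia3, plus strand), chr6:47796141-47813430 (Pdia4, minus strand), chr12:17266545-17284770 (Pdia6, plus strand), chr11:50293961-50325673 (Canx, minus strand), chr16:17130138-17132383 (Sdf2l1, minus strand).

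Several facts about the libraries bear on what follows. They held 14493764 to 27340070 gene counts each, and the day 14 libraries, at 14731908 to 17067236, were shallower than every control, at 21610411 to 27340070. Cd3e, part of the T cell receptor complex, and Cd4 were abundant in every library, at no less than 762 and 781 TMM-scaled CPM (reads of a gene relative to the size of its library). Control libraries 1 and 2 stood apart: the summed level of 10 genes of dividing cells was 1873 and 4304 CPM in them, against 309 to 515 CPM in the other controls, and the summed level of 9 neutrophil genes was 835 and 2270 CPM, against 19.1 to 50.9 CPM. Macrophage and monocyte genes summed to 214 and 578 CPM, against 8.33 to 46.3 CPM, and erythroid genes to 54.8 and 165 CPM, against 2.88 to 9.42 CPM. In control 2, Cd3e and Cd4 were at 880 and 781 CPM, below every other control. Y-linked transcripts were abundant in 5 libraries, control 1 and 2, day 7 libraries 6 and 7 and day 14 library 4. Reads outside gene models made up 47.1 to 56.7% of a control library, 54.6 to 68.0% at day 7 and 54.4 to 69.8% at day 14.

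Per length of exon, the folding enzymes and chaperones were the abundant members and the sensors the rare ones. In controls the level per kilobase was 159 ± 30.6 CPM for Pdia3, 144 ± 50.9 for Hsp90b1, 119 ± 30.0 for Hspa5 and 74.2 ± 24.2 for Canx (SD, n = 5). It was 46.5 ± 8.03 for Pdia4, 33.1 ± 15.2 for Xbp1, 17.5 ± 3.97 for Pdia6, 12.9 ± 7.60 for Sdf2l1, 4.31 ± 2.08 for Atf6 and 2.66 ± 1.32 for Ern1. The mean ± SD range of each gene overlapped that of its neighbours in this order. At day 14 Pdia3 still led, at 105 ± 37.6 CPM per kilobase, and at day 7 Hspa5 did, at 117 ± 14.1 beside 114 ± 11.6 for Pdia3 (SD, n = 4 and 7). The fewest reads were those of Sdf2l1, with 93 to 565 in a library, and Ern1, with 194 to 875.

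Hspa5 was the 1 member called lower at day 14 against control in edgeR. Pdia4 was close to the threshold (edgeR adjusted p = 0.0555), and the log2 changes of Xbp1 and Hsp90b1 were larger in size (-0.86 and -0.72). Hspa5 encodes BiP, the ER Hsp70 chaperone that also holds the stress sensors inactive. Its level was 633, 485, 631, 432 and 343 CPM in control libraries 1 to 5. At day 7 it lay between 416 and 569 CPM with a median of 506 CPM. At day 14 it was 261, 422, 289 and 309 CPM in libraries 1 to 4. The day 7 libraries lay within the range of the controls, while 3 of the 4 day 14 libraries lay below every control and library 2 lay above control 5. Hspa5 fell at day 14, to 320.1 ± 70.8 CPM against 505 ± 127 CPM in controls (SD, n = 4 and 5). The log2 change was -0.66 ± 0.18 (SE, edgeR adjusted p = 0.0486), a level at 63.4% of control. At day 7 its log2 change from control was -0.03 ± 0.15 (adjusted p = 0.931). Against day 7, at 493 ± 59.6 CPM (n = 7), the log2 change at day 14 was -0.62 ± 0.17 (adjusted p = 0.0763).

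**Figure D1:**
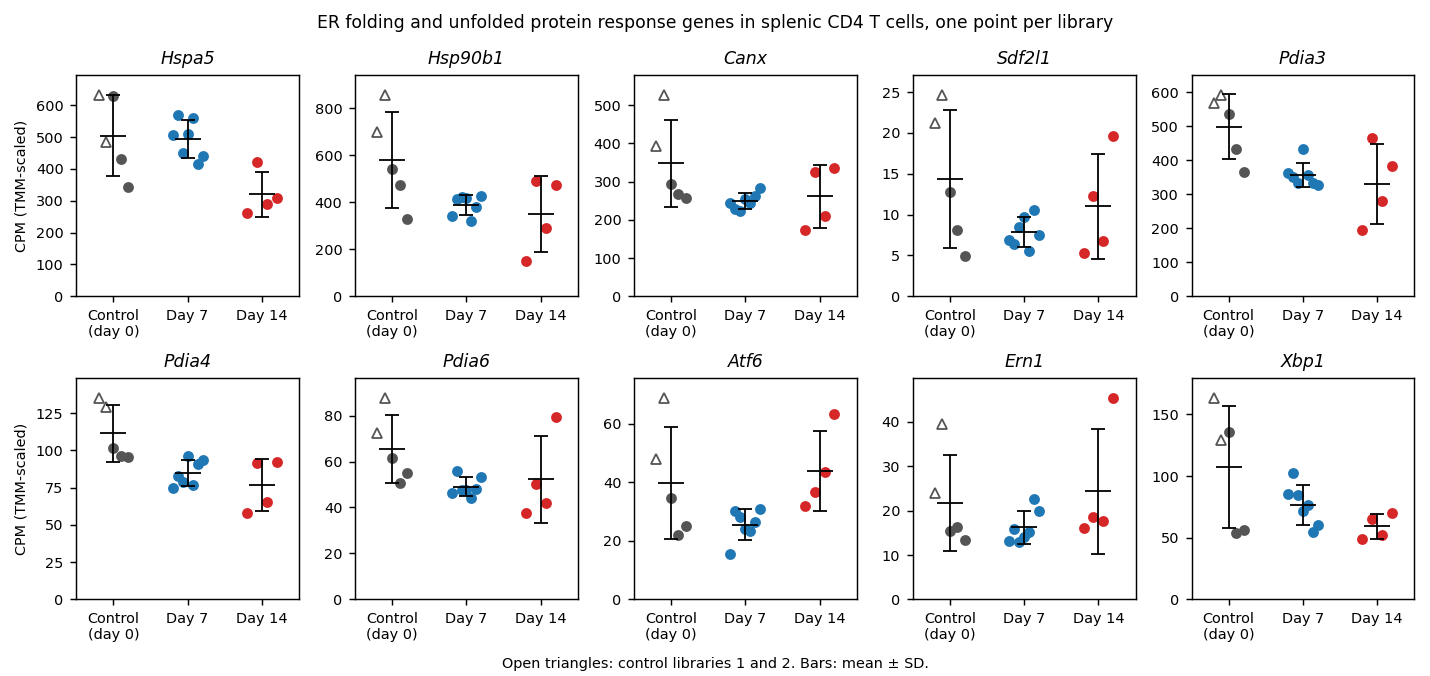
Level of each gene in TMM-scaled CPM (linear axes from 0), with 1 point per library, for control (day 0, n = 5), day 7 (n = 7) and day 14 (n = 4) mice; bars show the mean ± SD and open triangles are control libraries 1 and 2. The Hspa5 points of day 14 lie between 261 and 422 CPM while its day 7 points lie between 416 and 569 CPM, and the open triangles are the highest control points for 8 of the 10 genes.

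The fall of Hspa5 at day 14 was a narrow call. It was lost in 6 of the 9 fits that left out 1 library, those without control 1, 3 or 4 or without day 14 library 1, 3 or 4 (adjusted p = 0.0678 to 0.190). Without control libraries 1 and 2 the log2 change was -0.55 ± 0.19 (adjusted p = 0.0769), and over all alternatives the adjusted p ran from 0.00829 to 0.718 while the sign stayed negative. The call held in 6 of the 20 alternatives. In bulk libraries, fewer cells of a type and less RNA per cell cannot be told apart.

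Hsp90b1 encodes GRP94, the Hsp90 chaperone of the ER, whose clients include integrins and Toll-like receptors. Its level was 700.2, 859, 540.0, 472 and 329 CPM in control libraries 1 to 5. At day 7 it lay between 322 and 426 CPM with a median of 416 CPM, and at day 14 it was 151, 491, 289 and 476 CPM. Control libraries 1 to 3 lay above every library from mice with lymphoma, and controls 4 and 5 lay among them. Its log2 change was -0.57 ± 0.24 at day 7 and -0.72 ± 0.28 at day 14 against control (edgeR adjusted p = 0.175 and 0.143).

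Canx encodes calnexin, the membrane lectin chaperone of newly made glycoproteins. Its level was 394, 527, 294, 268 and 258 CPM in control libraries 1 to 5, between 222 and 283 CPM with a median of 245 CPM at day 7, and 174, 326, 210 and 335 CPM at day 14. Only control libraries 1 and 2 lay above every library from mice with lymphoma. The log2 change was -0.49 ± 0.18 at day 7 and -0.42 ± 0.21 at day 14 (adjusted p = 0.120 and 0.237), and without control libraries 1 and 2 these were -0.14 ± 0.16 and -0.07 ± 0.17.

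Sdf2l1, a small component of the BiP chaperone cycle and one of the genes that ER stress induces most readily, varied most among the chaperones. It stood at 21.2, 24.7, 12.8, 8.12 and 4.90 CPM in control libraries 1 to 5, between 5.59 and 10.5 CPM with a median of 7.55 CPM at day 7, and at 5.35, 12.3, 6.80 and 19.6 CPM at day 14. Controls thus ran from below every library of mice with lymphoma to above all of them. Its log2 change of -0.86 ± 0.35 at day 7 (adjusted p = 0.166) was -0.13 ± 0.35 without control libraries 1 and 2. At day 14 it was -0.38 ± 0.41 (adjusted p = 0.575), and 0.35 ± 0.39 without those libraries.

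The protein disulfide isomerases form and rearrange disulfide bonds in the ER, and Pdia3, also called ERp57, works beside calnexin and in the loading of MHC class I. Pdia3 stood at 567, 592, 536, 431 and 366 CPM in control libraries 1 to 5, between 328 and 433 CPM with a median of 351 CPM at day 7, and at 195, 465, 279 and 382 CPM at day 14. At day 7, 6 of 7 libraries lay below every control, and library 4 lay just above control 4. The log2 change was -0.48 ± 0.17 at day 7 and -0.59 ± 0.19 at day 14 (adjusted p = 0.106 and 0.0905).

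Pdia4, also called ERp72, was the member whose day 14 libraries were all below all controls. It stood at 58.0, 91.5, 65.2 and 92.4 CPM at day 14, against 135, 129, 101, 96.2 and 95.4 CPM in control libraries 1 to 5. The gap was small, 92.4 against 95.4 CPM, and 2.85% of the genes tested were separated in the same direction. At day 7 the level lay between 74.5 and 96.0 CPM with a median of 83.1 CPM. Against control, the log2 change was -0.54 ± 0.15 at day 14 and -0.40 ± 0.13 at day 7 (adjusted p = 0.0555 and 0.0954).

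Pdia6, known as P5, binds BiP and was also found to limit IRE1 signalling. It stood at 72.4, 87.7, 61.6, 50.7 and 55.1 CPM in control libraries 1 to 5, between 44.3 and 55.7 CPM with a median of 47.8 CPM at day 7, and at 37.6, 50.2, 42.0 and 79.4 CPM at day 14. Its groups overlapped in both comparisons with control. Its log2 change against control was -0.42 ± 0.16 at day 7 and -0.33 ± 0.19 at day 14 (adjusted p = 0.140 and 0.302).

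Of the membrane sensors, Atf6 and Ern1 had their lowest mean at day 7 and their highest at day 14, while Eif2ak3, which encodes PERK and is not among the 10 genes, had its lowest at day 14. Its mean level in CPM was 58.8 ± 19.7 for controls, 50.9 ± 7.14 for day 7 and 39.5 ± 4.54 for day 14 (SD, n = 5, 7 and 4). Atf6 encodes the sensor whose cytosolic part is released in the Golgi and acts as a transcription factor. It stood at 48.0, 68.9, 34.8, 22.0 and 25.1 CPM in control libraries 1 to 5, between 15.5 and 31.1 CPM with a median of 26.5 CPM at day 7, and at 32.0, 36.8, 43.6 and 63.3 CPM at day 14. Every day 14 library lay above every day 7 library, as for 1.77% of the genes tested, and the controls spanned both. The log2 change was 0.78 ± 0.26 at day 14 against day 7, -0.64 ± 0.25 at day 7 against control and 0.14 ± 0.28 at day 14 against control (edgeR adjusted p = 0.157, 0.143 and 0.766).

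Ern1 encodes IRE1, the kinase and endonuclease that splices the Xbp1 message. It stood at 24.1, 39.6, 15.3, 16.3 and 13.3 CPM in control libraries 1 to 5, between 12.9 and 22.6 CPM with a median of 15.2 CPM at day 7, and at 15.99, 18.5, 17.6 and 45.4 CPM at day 14. The high day 14 mean rested on library 4. The libraries with abundant Y-linked transcripts held the highest Ern1 levels of all. These were 24.1 and 39.6 CPM in control 1 and 2, 22.6 and 19.8 CPM in day 7 libraries 6 and 7, and 45.4 CPM in day 14 library 4. The Pearson correlation of Ern1 with the summed Y-linked transcripts, both on log2(CPM + 1), was 0.80 over the 16 libraries. In the 13 libraries other than control 1 and 2 and day 14 library 4 it was 0.72. The part of this difference in the level of Ern1 was not tested. The log2 change at day 14 was 0.59 ± 0.30 against day 7 and 0.17 ± 0.33 against control (adjusted p = 0.384 and 0.761), and the change against control was -0.33 without day 14 library 4.

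Markers of dividing cells and neutrophils moved with both of these sensors, and also with other members. The 10 dividing cell markers summed to 412, 1261, 1020 and 2076 CPM in day 14 libraries 1 to 4, against 198 to 729 CPM at day 7. The 9 neutrophil markers summed to 18.5, 60.8, 34.0 and 1730 CPM, against 0.802 to 36.4 CPM at day 7. In day 14 library 4 the neutrophil sum was mostly Mpo, at 1226 CPM. Elane, Prtn3 and Ctsg reached 146, 176 and 176 CPM at day 14. S100a8, S100a9, Ngp, Camp and Ltf were at most 2.96 CPM at day 14 and 5.64 CPM at day 7. Over the 16 libraries, which differ together in depth and cell composition, the Pearson correlation of log2(CPM + 1) with the summed dividing cell markers was 0.91 for Atf6, 0.87 for Ern1 and -0.11 for Hspa5. With the summed neutrophil markers it was 0.91 for Atf6, 0.89 for Ern1 and -0.09 for Hspa5. Hspa5 had the lowest values of the 10 genes. The remaining members ran from 0.31 (Xbp1) to 0.83 (Sdf2l1) with dividing cell markers and from 0.37 (Xbp1) to 0.83 (Pdia6) with neutrophil markers. In the 13 libraries other than control 1 and 2 and day 14 library 4, the values for Atf6 were 0.76 with dividing cell and 0.74 with neutrophil markers, and those for Ern1 were 0.70 and 0.61. The highest of the other members there was Sdf2l1, at 0.44 and 0.33. The part of these cells in the levels of the sensors was not tested.

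Xbp1 encodes the transcription factor that IRE1 activates by splicing, and a count per gene does not separate its spliced and unspliced forms. It stood at 163, 129, 135, 54.1 and 56.7 CPM in control libraries 1 to 5, between 54.3 and 102 CPM with a median of 76.4 CPM at day 7, and at 49.4, 65.5, 52.3 and 69.8 CPM at day 14. The controls fell into 2 sets, with libraries 1 to 3 above every library from mice with lymphoma and libraries 4 and 5 among the day 14 values. The log2 change was -0.86 ± 0.28 at day 14 and -0.49 ± 0.24 at day 7 (adjusted p = 0.0866 and 0.235), the largest in size at day 14 among the 10 genes. Without control libraries 1 and 2 these were -0.47 ± 0.26 and -0.10 ± 0.24.

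Day 7 against control asked what differed early after transplant. The log2 changes of all 10 genes were negative, with a median of -0.48, beside a median of 0.07 over all genes tested, of which 43.8% were negative and 56.2% positive. None of the 10 passed in edgeR at an adjusted p of 0.05, in a comparison where 0.0109% of genes did. At an unadjusted p under 0.05, 8 of the 10 were lower, all but Hspa5 and Ern1, against 12.7% of all genes, and none was higher, against 8.43%. None of the 10 had groups that did not overlap, as 0.982% of genes did with day 7 lower and 0.988% with day 7 higher. DESeq2 called 3 of the 10, Canx, Pdia3 and Pdia4, all lower, where it called 12.3% of the genes it tested. Without control libraries 1 and 2, 8 of the 10 log2 changes were negative with a median of -0.13, and none had an unadjusted p under 0.05. Without control 5, Pdia3 and Sdf2l1 passed in edgeR, in a fit that called 7.92% of all genes.

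Day 14 against control asked what differed at the later time. In edgeR 1 of the 10 genes was called lower, Hspa5, and none higher. Of the genes tested 1.8% were called lower, 1.33% higher and 3.13% in either direction. The log2 changes were negative for 8 genes, all but Atf6 and Ern1, with a median of -0.48, beside a median of 0.12, 42.3% negative and 57.7% positive over all genes. At an unadjusted p under 0.05, 5 were lower, Hspa5, Hsp90b1, Xbp1, Pdia3 and Pdia4, against 11.8% of all genes, and Pdia4 alone had groups that did not overlap, lower at day 14, where 5.24% of genes were separated the other way. DESeq2 called 4, Hspa5, Pdia3, Pdia4 and Xbp1, all lower, where it called 8.42% of genes. Without control libraries 1 and 2, none of the 10 passed in edgeR, the median was -0.22, and at an unadjusted p under 0.05 Hspa5 and Pdia4 were lower while Atf6 and Ern1 were higher. In edgeR, Hspa5, Pdia3, Pdia4 and Xbp1 passed without control 5, where 4.95% of all genes were called. Hspa5, Pdia3 and Pdia4 passed without day 14 library 2, where 7.5% were called, and Xbp1 alone without control 4, where 1.11% were. The median of the 10 was -0.30 with library totals, beside 0.32 over all genes, and -0.27 with reads outside gene models as a covariate, beside -0.08.

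**Figure D2:**
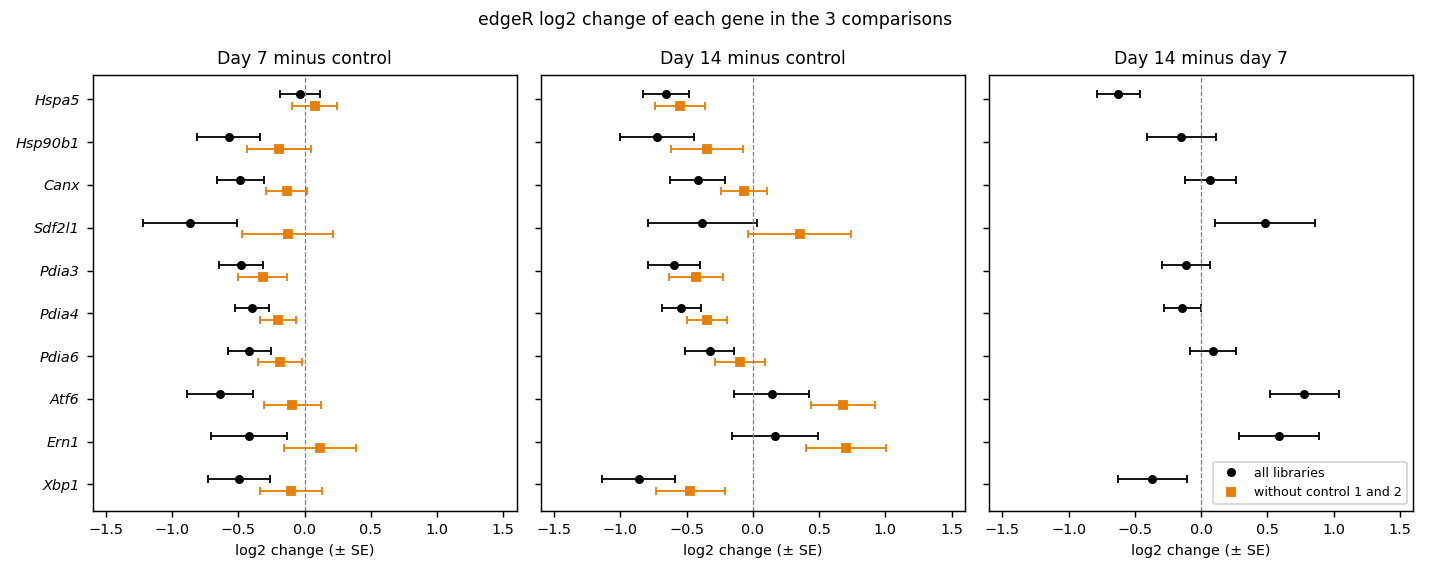
edgeR log2 change (± SE) of each gene for day 7 minus control, day 14 minus control and day 14 minus day 7, from all 16 libraries (black circles) and without control libraries 1 and 2 (orange squares, for the comparisons with control). In the day 14 comparison with control, Hspa5 moves from -0.66 to -0.55 when these libraries are left out, while Atf6 moves from 0.14 to 0.68.

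Both comparisons with control use the same 5 control libraries, so their signs are not independent of each other. Day 14 against day 7 does not compare with them, but they are in the same fit and enter its scaling, filter and estimate of spread. Here none of the 10 passed in edgeR, where 0.966% of genes did, and 5 log2 changes were negative and 5 positive (40.6% and 59.4% over all genes), with a median of -0.02 beside 0.12 over all genes. Without day 14 library 2, Hspa5 passed (adjusted p = 0.0263), in a fit that called 1.94% of all genes. With only the day 7 and day 14 libraries fitted, edgeR called Hspa5 lower and Atf6 higher (adjusted p = 0.0187 and 0.0325). That fit called 712 of the 17014 genes tested. At an unadjusted p under 0.05, Hspa5 was lower (8.27% of all genes were) and Atf6 was higher (6.54% were), and DESeq2 called the same pair (adjusted p = 0.00649 and 0.0396), where it called 5.72% of genes. For Atf6, leaving out day 14 library 4 gave the smallest change of any such fit, 0.55 (adjusted p = 0.602).

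Ratios between genes within a library do not depend on how libraries are scaled. These ratios were chosen after the levels had been seen, so they are given with no test. Hspa5 relative to Pdia3 was 1.12, 0.82, 1.18, 1.00 and 0.94 in control libraries 1 to 5, between 1.18 and 1.62 with a median of 1.35 at day 7, and 1.34, 0.91, 1.03 and 0.81 at day 14. The lowest day 7 ratio, in library 4, and the highest control ratio, in library 3, were nearly equal. Atf6 per 100 CPM of Hspa5 was 7.57, 14.2, 5.52, 5.10 and 7.32 CPM in control libraries 1 to 5, between 3.05 and 7.04 CPM with a median of 5.33 CPM at day 7, and 12.3, 8.72, 15.1 and 20.5 CPM at day 14. Every day 14 library thus had more Atf6 relative to Hspa5 than every day 7 library and than every control except library 2. The median of Ern1 per 100 CPM of Hspa5 was 3.80 for controls, 2.78 for day 7 and 6.11 for day 14, and control 2 (8.16 CPM) and day 14 library 4 (14.7 CPM) were the highest of their groups.

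**Figure D3:**
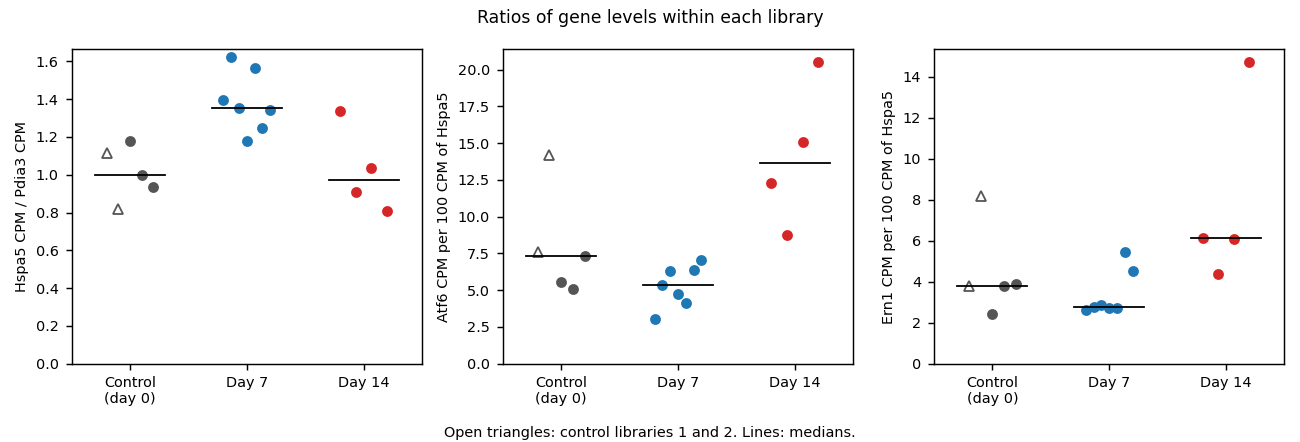
Ratio of Hspa5 to Pdia3, and Atf6 and Ern1 per 100 CPM of Hspa5, in each library of the control (day 0), day 7 and day 14 groups, on linear axes from 0; lines are group medians and open triangles are control libraries 1 and 2. The day 7 medians are the highest for the first ratio, 1.35, and the lowest for the other two, 5.33 and 2.78 CPM.

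Most pairs of the 10 genes were positively correlated across the libraries. Pairs of other genes were not compared, so these correlations have no background beside them. Over the 16 libraries, which differ together in depth and cell composition, 43 of the 45 pairs of genes had a positive Pearson correlation of log2(CPM + 1), with a median of 0.70 (median Spearman rho 0.54). The median was 0.52 without control libraries 1 and 2, where 40 of the 45 pairs were positive, and 0.72 with each group centred on its own mean. The negative pairs over all libraries were Hspa5 with Atf6 (-0.18) and with Ern1 (-0.15). Without control libraries 1 and 2 these were -0.47 and -0.39. Canx followed the others most closely, with a median correlation of 0.85, and Hspa5 least, with 0.38. The genes outside the 10 whose pattern was most like their mean standardised level, among 8430 genes averaging 10 CPM or more over 16 libraries, were Snrpd1 (Pearson r = 0.97), a core protein of spliceosomal particles, the GMP synthase Gmps (0.96), the deubiquitinase Usp1 (0.96), Kctd12 (0.96) and the nuclear import receptor Ipo5 (0.95). None of these 5 was in the wider list of ER genes.

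The mean log2(CPM + 1) of the 10 genes was 7.19, 7.36, 6.84, 6.44 and 6.27 in control libraries 1 to 5, between 6.294 and 6.5001 with a median of 6.45 at day 7, and 5.89, 6.64, 6.21 and 6.91 in day 14 libraries 1 to 4. The day 7 libraries spanned a narrow range, which held control 4, and control 5 lay just under it. The summed level of the 10 genes of dividing cells was, in CPM, 309 to 4304 for controls, 198 to 729 for day 7 and 412 to 2076 for day 14. Control libraries 1 and 2 and day 14 library 4, with 1873, 4304 and 2076 CPM of these, held the 3 highest mean levels of the ER genes.

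Plasma cells hold more ER than other lymphocytes, so their markers were read beside the result. Of 9 listed marker names 8 were in the table, and their sum was, in CPM, 109 to 636 for controls, 48.8 to 258 for day 7 and 63.3 to 259.7 for day 14. Of these 8 genes Derl3, Fkbp11 and Txndc5 are also in the wider list of ER genes. Igj, the joining chain of secreted antibodies, stood at 473, 443, 208, 135 and 50.001 CPM in control libraries 1 to 5, between 0.401 and 154 CPM with a median of 14.8 CPM at day 7, and 1.73, 85.5, 10.9 and 135 CPM at day 14. The markers Mzb1 and Tnfrsf17 were at 0 in some libraries. The 3 controls with the most Xbp1 were also the 3 with the most Igj, while among day 7 libraries those with the most Igj, 6 and 7, had the least Xbp1, 54.3 and 60.2 CPM. The sum of 8 B cell markers was, in CPM, 14.5 to 76.8 for controls, 16.4 to 33.0 for day 7 and 18.8 to 42.8 for day 14, with Ebf1 at 0 in some libraries. Among them the mean of Cd22 was 14.8 CPM at day 14 against 9.31 CPM in controls, while that of Cd79a was 2.64 against 9.08 CPM. The sum of 9 neutrophil markers was, in CPM, 19.1 to 2270 for controls, 0.802 to 36.4 for day 7 and 18.5 to 1730 for day 14. All but Mpo were at 0 in some library, and Mpo alone held 1226 CPM in day 14 library 4. The part of these cells and of cell division in the levels of the ER genes was not tested.

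Day 14 library 1, with the largest share of reads outside gene models, 69.8%, had the lowest level of 7 of the 10 genes among all 16 libraries. Day 14 library 2, with 54.4%, had the highest day 14 level of Hspa5, Hsp90b1 and Pdia3. The part of this share in the result was not tested, and with it as a covariate the log2 change of Hspa5 at day 14 against control was -0.40 ± 0.22 (edgeR adjusted p = 0.718).

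**Figure D4:**
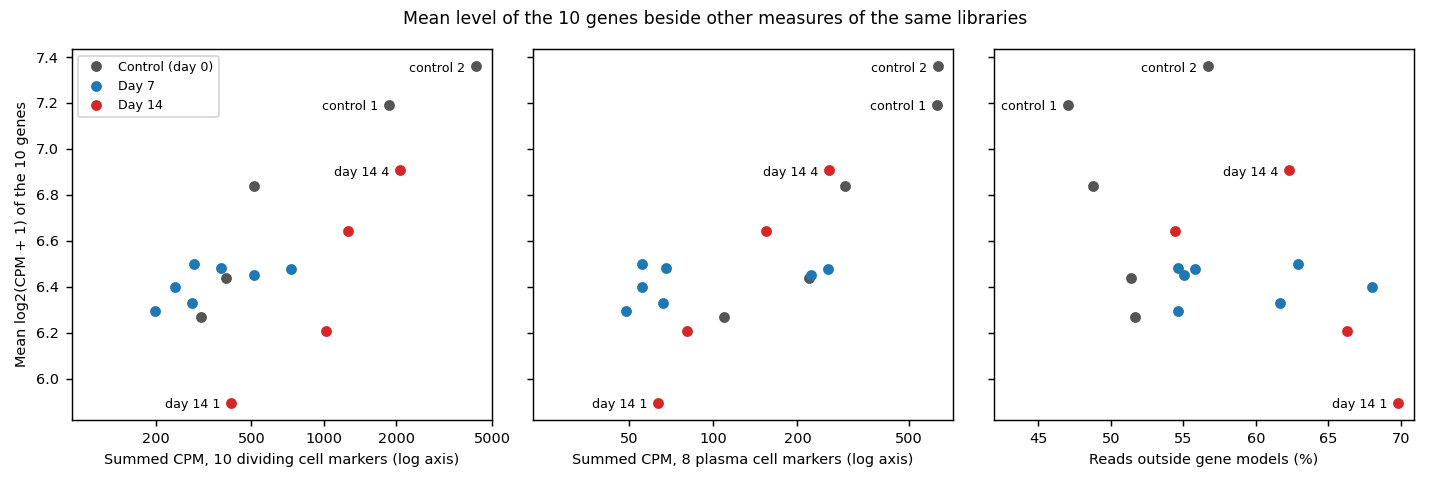
Mean log2(CPM + 1) of the 10 genes in each of the 16 libraries against the summed CPM of 10 dividing cell markers, the summed CPM of 8 plasma cell markers (both log axes) and the percentage of reads outside gene models; colours show control (day 0), day 7 and day 14. Control libraries 1 and 2 are highest on the vertical axis, at 7.19 and 7.36, and day 14 library 1 is lowest, at 5.89, with 69.8% of reads outside gene models.

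The wider machinery of ER protein folding, another 85 listed genes of which 83 were tested, also had mostly negative changes against control. At day 14 against control 69 of the 83 log2 changes were negative, beside 42.3% of all genes, and the median was -0.24, beside 0.12 over all genes. With library totals 48 of the 83 were negative, with a median of -0.05 beside 0.32 over all genes. With reads outside gene models as a covariate 48 were negative too, and the median of -0.06 lay close to that of all genes, -0.08. Of the 83 genes 1 was called lower in edgeR and none higher, where 1.8% of all genes were called lower and 1.33% higher. The called gene was Tmx3, a membrane disulfide isomerase, at 54.6 ± 11.7 CPM against 76.6 ± 7.33 CPM in controls (SD, n = 4 and 5). Its change was -0.49 ± 0.13 on the log2 scale (edgeR adjusted p = 0.0447). The call was lost in 6 of the 9 fits that left out 1 library (control 1, 3 or 4, or day 14 library 1, 3 or 4). It was also lost in 7 of the 11 other alternatives. These were library totals, no filter, the compared groups only, the covariate of reads outside gene models and the replicate block. The others were the fits without control libraries 1 and 2 and without the libraries with abundant Y-linked transcripts. In each fit where the call was lost, none of the 83 passed. DESeq2 called 5 of the 83 at day 14, all lower, where it called 8.42% of genes. At day 7 none of the 83 passed in edgeR, where 0.0109% of genes did, and 25 were lower and 3 higher at an unadjusted p under 0.05, against 12.7% and 8.43% of all genes. At that time 62 of the 83 log2 changes were negative, beside 43.8% of all genes, with a median of -0.18 beside 0.07. With reads outside gene models as a covariate, 49 were negative and the median was -0.08, as over all genes. DESeq2 called 16 of the 83 at day 7, 13 lower and 3 higher, where it called 12.3% of genes.

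By role, the signs at day 14 against control were most uniform for translocation and signal peptidase genes, with 17 of 17 negative and a median of -0.24, led in abundance by the translocation factor Sec62 (log2 change -0.47 ± 0.13, adjusted p = 0.0588). Among the other ER lumen chaperones 12 of 15 were negative with a median of -0.43, and the most abundant, the lectin chaperone calreticulin (Calr), had a change of -0.62 ± 0.23 (adjusted p = 0.126). The other disulfide enzymes had 10 of 12 negative with a median of -0.27. Glycosylation and glycan quality control genes had 10 of 12 negative with a median of -0.25, the most abundant being Dad1, a subunit of the oligosaccharyltransferase (-0.27 ± 0.13, adjusted p = 0.220). ER-associated degradation genes had 12 of 17 negative with a median of -0.20, led in abundance by the lectin Os9 (-0.22 ± 0.08, adjusted p = 0.129). For other sensors and sensor processing genes, 3 of 4 were negative. Eif2ak3, named after its value was seen, had a change of -0.57 ± 0.19 (edgeR adjusted p = 0.0981), opposite in sign to Atf6 and Ern1, and the most abundant, the site-1 protease gene Mbtps1, whose product cuts ATF6, had a change near 0, -0.0047 ± 0.09 (adjusted p = 0.976). Atf4, the transcription factor downstream of PERK, led the other factors and had a change of -0.08 ± 0.17 at day 14 and 0.44 ± 0.15 at day 7 (adjusted p = 0.797 and 0.111).

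At day 14 against day 7 none of the 83 passed in edgeR, where 0.966% of genes did, and 12 were lower and 2 higher at an unadjusted p under 0.05, against 8.27% and 6.54% of all genes. Of the 83 log2 changes 48 were negative, beside 40.6% of all genes, with a median of -0.02 beside 0.12. DESeq2 called 1, lower, where it called 5.72% of genes. That gene was Dnajb9, a BiP co-chaperone that IRE1 and XBP1 induce, named after its value was seen. Its edgeR log2 change was -1.09 ± 0.33 (adjusted p = 0.117).

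**Figure D5:**
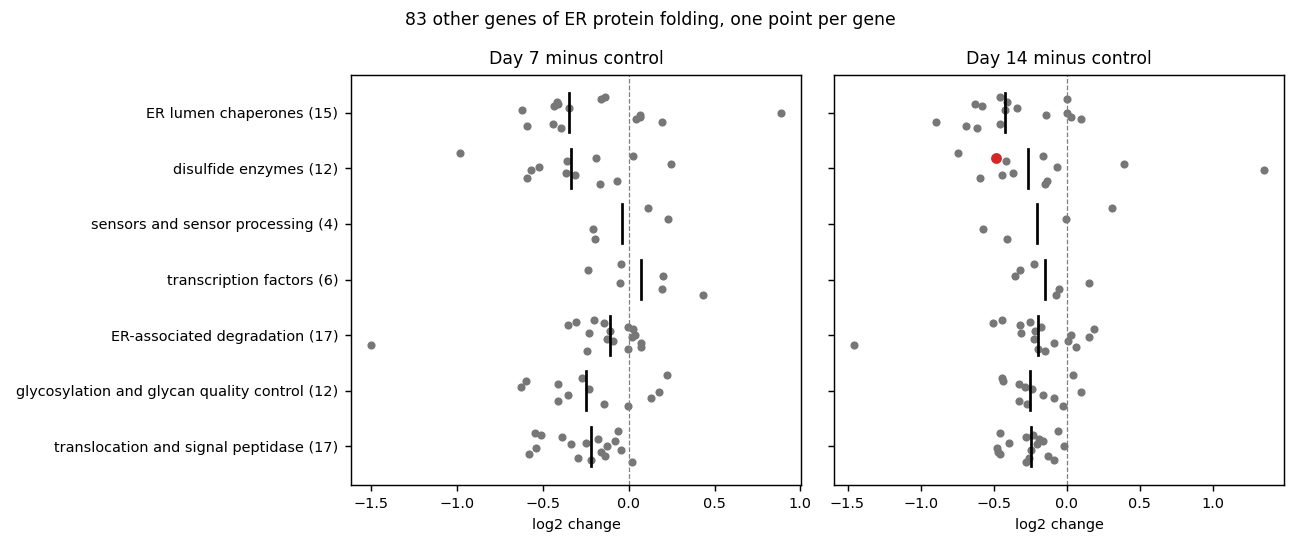
edgeR log2 changes of the 83 other ER genes by role, with 1 point per gene and the median of each role as a black line, for day 7 minus control and day 14 minus control; the red point is the gene with an adjusted p under 0.05, Tmx3. Medians lie between -0.35 and 0.07 at day 7 and between -0.43 and -0.15 at day 14.

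The genes whose promoters held the ER stress response element did not stand apart in sign from the other members. At day 14 against control the 4 members with the element had log2 changes of -0.72 to -0.33, and the 5 without it in this window had changes of -0.86 to 0.17. In the wider list the element was found in 5 of 67 genes with a promoter entry, Calr, Dnajc3, Creld2, Syvn1 and Derl3, with changes of -1.45 to -0.14 at day 14, and none of these 5 passed.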

How the data were processed

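Per the labels, CD4 T cells were isolated by immunomagnetic negative selection and libraries were made from total RNA with a Nugen kit. The deposited values are whole-number read counts per gene for 16 libraries, not normalized. Among the tools in the submitters' processing notes are HTSeq 0.6.1 and cutadapt 1.8.1, with bcl2fastq 2.20.0.422 and the build mm10. The sources used here give no aligner, annotation or strand setting. Pdia3 overlaps Catsper2 and Pdia6 overlaps Atp6v1c2, each on the opposite strand, and 3 genes overlap Hsp90b1. On the same strand, Atf6 overlaps the small RNA genes Gm23523 and Gm25235, and Pdia4 overlaps Mir704. Reads in the shared stretches are uncertain. Excluded from library sizes and tests were 5 lines that name no gene, of which the one counting reads outside gene models made up 47.1 to 69.8% of each total.

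The quasi-likelihood test of edgeR 4.0.16 in R 4.3.3 was applied after TMM scaling and filterByExpr, with all 16 libraries in 1 fit; p-values were adjusted over 18430 genes by Benjamini-Hochberg and called at 0.05. The SE was taken as the size of the log2 change over the root of its F statistic. CPM is TMM-scaled, and level per kilobase divides it by the union of GENCODE exons (GRCm38, the assembly of mm10). DESeq2 1.42.0 and the other alternatives are given in the closing part. The members, gene lists, control libraries left out and tests were chosen with earlier results of these data known. All members were named; of the wider list, called genes and the most abundant gene of each role without one were named. On simulated data 1.5-fold changes were recovered in 35.8% of cases for day 7 against control, 19.4% for day 14 against control and 28.4% for day 14 against day 7 (17258, 17154 and 17191 genes), and 2-fold changes in 74.6%, 52.2% and 67.2%. In each simulation 200 genes were changed and every gene was drawn independently. It held no shift shared by the genes of a library, so these shares need not apply to the real libraries. Replicate numbers were read as naming different mice, and on that reading the p-values measure the spread between mice. Figures were drawn with Matplotlib 3.10.9.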

Additional observations from a re-analysis of the deposited data

Results flagged for a closer look

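Of 45 groups of values examined (10 genes, their mean level and 4 ratios, each in 3 groups), 5 held a library far from the rest of its group. The rule used marks about 1 in 20 groups of independent, normally distributed values. The ratios and the mean level are built from the same genes, so that share need not apply here. Ern1 stood at 45.4 CPM in day 14 library 4, against 18.5 CPM in the next highest. The same library held 14.7 CPM of Ern1 per 100 CPM of Hspa5, against 6.13 CPM in the next, and 1226 CPM of the neutrophil gene Mpo, where the next highest of day 14 had 36.1 CPM. Pdia3 stood at 433 CPM in day 7 library 4, against 363 CPM in the next highest. Control library 2 held 14.2 CPM of Atf6 and 8.16 CPM of Ern1 per 100 CPM of Hspa5, against 7.57 and 3.87 CPM in the next highest controls.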

How the results depend on the processing

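In comparisons of single genes, 578 of 640 alternative values kept sign and side of the threshold, 25 passed where the original did not, 14 no longer passed and 23 changed sign. The 578 were mostly values that passed in neither fit. All 14 were of Hspa5 at day 14 against control, the only member value called in the original. Its call held in 6 of its 20 alternatives. For day 7 against control, where 0 members, 2 genes in all and 0 of the wider list passed, DESeq2 gave 3, 1603 and 16. The Y-linked covariate gave 327 genes in all and 2 of the wider list, and leaving out the 5 libraries with abundant Y-linked transcripts, chosen after the data were seen, gave 138 and 2. Fitting only the compared groups gave 4 genes in all, and 0 remained without control libraries 1 and 2 or with the covariate of reads outside gene models. For day 14 against control, where 1 member, 577 genes and 1 of the wider list passed, DESeq2 gave 4, 1551 and 5, no filter 0, 381 and 0, and the compared groups alone 0, 4 and 0. Without control libraries 1 and 2 the counts were 0, 942 and 0, and with the covariate of reads outside gene models 0, 1 and 0. RLE scaling gave 0 members, library totals 0 members and 0 of the wider list, and omitting the Y-linked-rich libraries 0 and 0. The Y-linked covariate gave 2 members, and the CPM filter 2 of the wider list. Over all genes 246 were higher and 331 lower, 289 and 250 with RLE, and 699 and 100 with library totals, which moved the median log2 change of all genes to 0.32 against 0.12. For day 14 against day 7, where 0, 178 and 0 passed (76 higher, 102 lower; 87 and 72 with RLE, 150 and 41 with library totals), DESeq2 gave 2, 707 and 1, the compared groups alone 2, 712 and 1, the Y-linked covariate 2, 972 and 2, and omitting the Y-linked-rich libraries 1, 556 and 2. The covariate of reads outside gene models gave 85 genes in all.

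With 1 library left out at a time, member counts ran from 0 to 2 for day 7 against control (0 to 1455 for all genes, 0 to 13 for the wider list), from 0 to 4 for day 14 against control (65 to 1458, and 0 to 12) and from 0 to 1 for day 14 against day 7 (25 to 377, and 0 to 1). The highest counts came without control 5 for day 7 and, over all genes, without day 14 library 2 for the other comparisons. Correlations between the deviations of same-numbered mice ran from -0.34 to 0.30. Different-numbered mice were not compared, so these values cannot show whether the numbers pair them. The replicate block gave 36 genes in all for day 7 against control. For day 14 against control it gave 0 members, 1 gene in all and 0 of the wider list, and for day 14 against day 7 it gave 2, 702 and 3.

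Hspa5 at day 7 against control became 0.0035 with library totals, 0.076 without control libraries 1 and 2, 0.15 with the covariate of reads outside gene models, 0.097 with the replicate block and 0.11 without the Y-linked-rich libraries, and ran from -0.14 to 0.12 with 1 library left out. Without control libraries 1 and 2, Ern1 at day 7 became 0.12 and Sdf2l1 at day 14 became 0.35. Atf6 at day 14 against control became -0.087 with the covariate of reads outside gene models. For day 14 against day 7, library totals gave 0.025 for Pdia3 and 0.0026 for Pdia4, and omitting the Y-linked-rich libraries gave -0.16 for Pdia6 and -0.011 for Canx. With 1 library left out, the ranges for day 14 against control were -0.092 to 0.43 for Atf6 and -0.33 to 0.50 for Ern1. For day 14 against day 7 they were -0.36 to 0.072 for Hsp90b1, -0.33 to 0.048 for Pdia3, -0.077 to 0.19 for Canx and -0.19 to 0.19 for Pdia6. The cause of these shifts was not tested.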
